A study of Homo sapiens with 6 samples.

Results

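Nonhomologous end joining is the repair route that rejoins the ends of a broken DNA double helix without a template. A ring made of the proteins of *XRCC6* and *XRCC5*, the Ku heterodimer, slides onto each end and recruits the kinase encoded by *PRKDC*, after which nucleases and polymerases trim and fill the ends and a ligase complex seals them. The route works throughout the cell cycle, whereas homologous recombination copies a sister chromatid and is used mainly in S and G2 phase. The 10 genes described here encode the core of this machinery. They were chosen by name and make up 10 of the 58336 genes of the count table: *PRKDC*, *XRCC5* and *XRCC6* (break recognition), *DCLRE1C*, *POLL* and *POLM* (end processing), and *XRCC4*, *LIG4*, *NHEJ1* and *PAXX* (ligation).

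RNA was measured in A2780 cells, a human ovarian cancer line, by sequencing 6 libraries. One group of 3 libraries came from cells given the DMSO vehicle and the other group of 3 from cells treated for 48 h with 6 µM TH588 (written TH-588 in the labels), an inhibitor of the nucleotide pool enzyme MTH1. Both groups were grown in the same insulin-supplemented serum medium, and replicates carry the letters A, B and C. All values come from 1 established line. What separates 1 replicate from another is not given by the labels, so p-values measure the spread between these libraries, part of which may be technical.

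Total counts lay between 77634048 and 99074175 in 5 libraries and reached 28537837 in TH588 replicate A. There the small nucleolar RNA *SNORD3A* took 21.94% of the counts, against 11.2% and 12.95% in TH588 replicates B and C. With DMSO its share was 7.68%, 10.59% and 9.88%, below that of every TH588 library. Levels are given as CPM, counts scaled to the TMM library size, a normalization that centres the bulk of genes between libraries. A count of 3, taken here as the floor, equals 0.112 CPM in TH588 replicate A and 0.0276 to 0.0365 CPM in the others, counting error only. Of 9 epithelial and ovarian carcinoma markers, *KRT8*, *KRT19*, *CDH1*, *PAX8*, *WT1* and *MUC16* stayed below 1 CPM in all 6 libraries, so most of these defining markers were absent or nearly so. Of the other 3, *KRT18* and *EPCAM* were higher after TH588, from low DMSO means of 3.56 and 0.644 CPM. *KRT18* shares 16.3% of its exon bases with *KRT8*. *VIM*, at 3585.6 CPM with DMSO, was not called. Leukocyte, endothelial and fibroblast markers summed to 14.6 to 16.4 CPM with DMSO and 17.4 to 19.9 CPM with TH588 over 10 genes, of which 5 were below 1 CPM in every library and *CD3E* was at 0. Of the 6 that could be tested, *CD14*, *COL1A2* and *PDGFRB* were higher and none was lower (24.2% and 25.3% of all genes tested). *CD14* held only 3, 6 and 8 counts with DMSO, at or near the floor, and stayed below 1 CPM in every library. The part of these markers in the results was not tested.

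The comparison asks how the RNA of the end joining genes differed after TH588. All 3 genes of the DNA-dependent protein kinase and *PAXX* were lower, *POLL* and *LIG4* were higher, and *DCLRE1C*, *POLM* and *XRCC4* did not pass the threshold of an adjusted p under 0.05 in edgeR's quasi-likelihood test across all genes. *NHEJ1* was too sparsely counted to be tested. Thus 2 members were higher, against 24.2% of all 15844 genes tested, and 4 were lower, against 25.3%. The 6 called of 9 tested stand beside a background of 49.6%, and this share is not read as a result about the members as a set. The groups did not overlap for 6 members, beside 57.7% of all genes tested. The median log2 fold change was -0.17 over the 9 members, which ranged from -0.99 to 1.08, and 0.02 over all genes tested. The members' median was -0.015 without DMSO replicate B and -0.062 with library size only. It was -0.075 with no filter, a setting that also includes *NHEJ1*. In bulk RNA, fewer cells with a transcript and less of it per cell cannot be told apart.

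**Figure D1:**
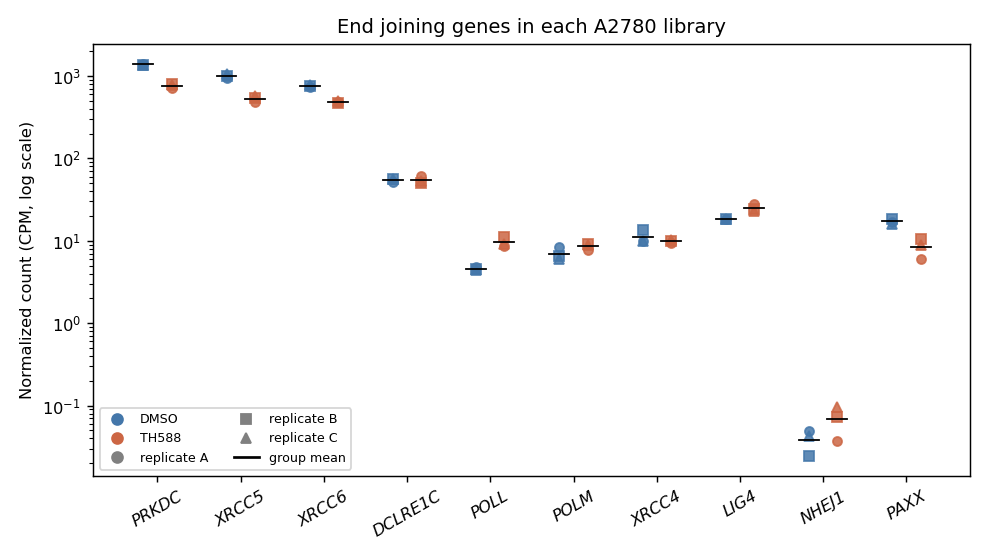
Level of each of the 10 end joining genes in CPM on a log axis, with DMSO libraries in blue, TH588 libraries in orange, replicates A, B and C as circles, squares and triangles, and black bars at the group means (n = 3). The 3 DNA-PK genes lie between 473.5 and 1409.1 CPM with, for each gene, the DMSO libraries all above the TH588 libraries, *POLL* and *LIG4* lie higher with TH588, and *NHEJ1* is at or near the floor of 3 counts.

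*PRKDC* encodes the catalytic subunit of the DNA-dependent protein kinase (DNA-PK), a very large kinase that holds the broken ends together. Its gene (ENSG00000253729) covers chr8:47773108-47960183 on the minus strand of GRCh38, with 15417 exon bases that no other gene of the table shares. It gave 1409.1, 1346.0 and 1370.8 CPM in the DMSO libraries and 705.8, 807.9 and 767.5 CPM in the TH588 libraries, in the order A, B, C used throughout. The DMSO libraries lay close together and all well above the TH588 libraries, with means of 1375.3 ± 31.8 and 760.4 ± 51.4 CPM (SD, n = 3 per group), 44.7% below DMSO. The log2 fold change was -0.85 (standard error 0.08, 95% interval -1.03 to -0.68, edgeR adjusted p = 3.63e-06).

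*XRCC5*, which encodes the larger Ku subunit, fell by nearly the same factor. The gene (ENSG00000079246) lies on the plus strand at chr2:216107464-216206303, with 5463 exon bases that are not shared either. Its levels were 952.7, 1009.6 and 1050.2 CPM with DMSO against 481.4, 545.8 and 566.1 CPM with TH588. No TH588 library came near a DMSO library, and the mean was 1004.1 ± 49.0 CPM in control and 531.1 ± 44.3 CPM in treated cells (SD, n = 3 per group), 47.1% below DMSO. The log2 fold change was -0.92 (standard error 0.09, 95% interval -1.11 to -0.73, edgeR adjusted p = 3.63e-06).

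*XRCC6*, the gene of the smaller Ku subunit, fell too, with a smaller fold change than its partner. It lies at chr22:41621119-41664048 on the plus strand (ENSG00000196419, 3288 exon bases). It gave 734.7, 760.0 and 768.3 CPM with DMSO and 484.2, 473.5 and 491.7 CPM with TH588. Both groups were tight and apart, at 754.3 ± 17.5 and 483.2 ± 9.14 CPM (SD, n = 3 per group), 35.9% below DMSO. The log2 fold change was -0.64 (standard error 0.07, 95% interval -0.80 to -0.48, edgeR adjusted p = 1.68e-05). Of the 5 *XRCC6* pseudogenes in the table, *XRCC6P2* held 0 to 9 counts per library and the other 4 held none, so few reads were credited to copies. Treatment of reads matching several genes is not given in the sources used here, so any reads lost from *XRCC6* cannot be counted.

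By the coordinates of the count table, *XRCC6* and *DESI1*, a gene of a desumoylating peptidase, start 23 bases apart on opposite strands. The short stretch between both starts belongs to no exon of either. Other annotations start *XRCC6* further downstream, GENCODE at position 41621163 and RefSeq 176 bases after the count table start. The stretch is shown because both genes moved the same way. It is in lower case throughout since it holds none of the motifs searched (RefSeq promoter window on GRCh38.p14, chr22:41621097-41621118, plus strand).
XRCC6 and DESI1 start gap: cgcatgtgcttacagtcctgac
*DESI1* fell from 30.7 ± 1.26 to 19.3 ± 1.36 CPM (SD, n = 3 per group), which gave a log2 fold change of -0.67 (standard error 0.09, edgeR adjusted p = 7.05e-05), and its groups did not overlap. *PRKDC* has a divergent neighbour too: *MCM4*, a subunit of the replicative helicase, starts 2 bases from it by the count table coordinates. *MCM4* fell from 292.5 ± 2.77 to 97.1 ± 4.96 CPM (SD, n = 3 per group), which gave a log2 fold change of -1.59 (standard error 0.08, edgeR adjusted p = 3.14e-08) (the difference from the change of *PRKDC* was not tested).

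Of the 3 end processing genes, *POLL* was the one called. It encodes DNA polymerase lambda, an X family polymerase that fills short gaps at aligned ends. The gene (ENSG00000166169) lies on the minus strand at chr10:101578882-101588270. Its levels were low, at 4.79, 4.56 and 4.39 CPM with DMSO and 8.71, 11.1 and 9.18 CPM with TH588. Every TH588 library exceeded every DMSO library, and the mean rose from 4.58 ± 0.204 to 9.66 ± 1.27 CPM (SD, n = 3 per group), a fitted fold of 2.12. The log2 fold change was 1.08 (standard error 0.13, 95% interval 0.80 to 1.37, edgeR adjusted p = 2.54e-05). Of its 5420 exon bases, 4.48% are shared with *DPCD* on the opposite strand. The library kit does not mark strand, so reads there cannot be assigned. *DPCD* itself went from 9.85 ± 0.878 to 8.32 ± 1.33 CPM (SD, n = 3 per group), with a log2 fold change of -0.26 (edgeR adjusted p = 0.139). The part of the shared bases in the rise of *POLL* was not tested. The longest exon-free stretch of its promoter window (GRCh38.p14, chr10:101588401-101588520, minus strand) is shown because *POLL* had the largest rise of the members. The stretch ends 130 bases before the RefSeq start and contains none of the motifs searched. An ETS site (CCGGAAG or its complement) lies in the part of the window that is not printed.
POLL: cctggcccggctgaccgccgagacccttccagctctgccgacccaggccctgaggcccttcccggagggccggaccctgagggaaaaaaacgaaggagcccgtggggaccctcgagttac

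*POLM* encodes polymerase mu, the closest relative of polymerase lambda in this pathway (ENSG00000122678, chr7:44072247-44082540, minus strand). It gave 8.41, 6.47 and 6.06 CPM with DMSO and 7.73, 9.05 and 8.81 CPM with TH588. DMSO replicate A lay within the TH588 range and the groups overlapped. The means were 6.98 ± 1.25 and 8.53 ± 0.699 CPM (SD, n = 3 per group), with a log2 fold change of 0.30 (standard error 0.14, 95% interval -0.02 to 0.61, edgeR adjusted p = 0.105). This value rests on 1 library: without DMSO replicate A the log2 fold change was 0.472 and passed the threshold (edgeR adjusted p = 0.0157).

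*DCLRE1C* encodes Artemis, the nuclease that opens hairpins and trims overhangs once DNA-PK activates it (ENSG00000152457, chr10:14897359-14954432, minus strand). It stood at 51.2, 56.5 and 55.9 CPM with DMSO and 60.9, 50.6 and 53.2 CPM with TH588. The DMSO range lay inside the TH588 range, with means of 54.5 ± 2.93 and 54.9 ± 5.35 CPM (SD, n = 3 per group). The log2 fold change was 0.01 with a 95% interval from -0.19 to 0.20 (edgeR adjusted p = 0.965) and the interval bounds the change these libraries allow. *SUV39H2*, on the opposite strand, shares 2.51% of its exon bases, and *DCLRE1CP1*, a pseudogene, held 5 to 20 counts per library.

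In the ligation complex, *LIG4* encodes the ligase that seals the ends (ENSG00000174405, chr13:108207439-108218368, minus strand). It gave 18.6, 18.2 and 18.4 CPM with DMSO and 27.8, 24.4 and 23.1 CPM with TH588. The DMSO libraries were almost equal and all lay under the TH588 libraries, of which the shallow replicate A was the highest. The mean rose from 18.4 ± 0.173 to 25.1 ± 2.44 CPM (SD, n = 3 per group), 36.0% above DMSO, with a log2 fold change of 0.44 (standard error 0.10, 95% interval 0.23 to 0.65, edgeR adjusted p = 0.00244). By the count table coordinates, *LIG4* starts 11 bases from *ABHD13*, a hydrolase domain gene on the other strand. The RefSeq start of *LIG4* lies 19 bases further downstream. The bases between the count table starts are printed because the genes on either side differed in their calls (GRCh38.p14, chr13:108218369-108218378, minus strand).
LIG4 and ABHD13 start gap: agaagccgct
*ABHD13* stood at 8.59 ± 0.0607 CPM in control and 8.15 ± 0.715 CPM in treated cells (SD, n = 3 per group), with overlapping groups and a log2 fold change of -0.08 (standard error 0.12, edgeR adjusted p = 0.584). The difference between the changes of the neighbours was not tested.

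*XRCC4* encodes the scaffold that stabilises the ligase (ENSG00000152422, chr5:83077498-83353787, plus strand). Its levels were 9.94, 13.5 and 9.92 CPM with DMSO and 9.49, 9.95 and 10.1 CPM with TH588. DMSO replicate B stood above all the others, and the remaining 5 libraries were within a narrow band. The means were 11.1 ± 2.03 and 9.84 ± 0.308 CPM (SD, n = 3 per group), with a log2 fold change of -0.17 (standard error 0.14, 95% interval -0.47 to 0.12, edgeR adjusted p = 0.319). *TMEM167A*, whose gene body overlaps the start of *XRCC4* from the other strand without shared exon bases, had a log2 fold change of -0.38 (standard error 0.14, edgeR adjusted p = 0.0357), though its groups overlapped.

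*PAXX* encodes a small paralogue of the XRCC4 protein that binds Ku and stabilises the assembled complex (ENSG00000148362, chr9:136992418-136993984, plus strand, 1367 exon bases). It had 17.0, 18.6 and 16.0 CPM with DMSO and 6.09, 10.4 and 9.01 CPM with TH588. All TH588 libraries were below all DMSO libraries, and the shallow TH588 replicate A was the lowest. The mean fell from 17.2 ± 1.33 to 8.51 ± 2.21 CPM (SD, n = 3 per group), 50.5% below DMSO, with a log2 fold change of -0.99 (standard error 0.16, 95% interval -1.35 to -0.64, edgeR adjusted p = 0.000306). The 246 exon-free bases of its promoter window are printed (GRCh38.p14, chr9:136992172-136992417, plus strand), as *PAXX* was the member with the largest fall. Without TH588 replicate A, however, *PAXX* (-0.81) fell less than *XRCC5* (-0.842). Capitals mark 6 GC boxes (CCGCCC, the reverse complement of GGGCGG) and 1 ETS site (CCGGAAG). An E2F variant (TTCCCGC or its complement) lies in the part of the window that is not printed.
PAXX: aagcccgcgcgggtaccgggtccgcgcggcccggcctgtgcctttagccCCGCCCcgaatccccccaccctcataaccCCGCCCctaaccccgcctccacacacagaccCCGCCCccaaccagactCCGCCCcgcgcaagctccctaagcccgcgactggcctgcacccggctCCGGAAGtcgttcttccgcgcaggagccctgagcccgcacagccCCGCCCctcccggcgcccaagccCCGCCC

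*NHEJ1* encodes XLF, a further XRCC4 paralogue that bridges the ligase complexes (ENSG00000187736, chr2:219075317-219160865, minus strand). It held 4, 2 and 4 counts with DMSO and 1, 8 and 8 counts with TH588, near the floor in all libraries, and was removed by the filter on low counts. A same-strand gene model, ENSG00000280537, overlaps 65.42% of its exon bases and held 0 counts with DMSO and 1, 7 and 0 with TH588. How reads in exons of both models were counted is not given in the sources used here, so the level of *NHEJ1* is uncertain.

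**Figure D2:**
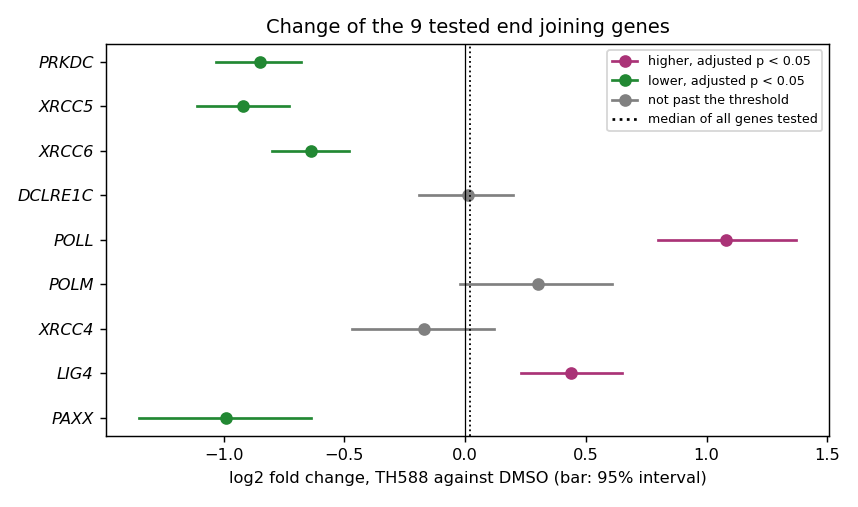
Log2 fold change (TH588 against DMSO) of the 9 tested members with 95% intervals from the edgeR fit, n = 3 libraries per group; green marks lower, purple higher, grey not past the threshold, and the dotted line is the median of all genes tested at 0.02. *PRKDC*, *XRCC5*, *XRCC6* and *PAXX* lie below 0 with their whole interval, *LIG4* and *POLL* above it.

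Ratios between partners within a library do not depend on scaling. The *XRCC6* to *XRCC5* ratio of CPM was 0.771, 0.753 and 0.732 with DMSO and 1.01, 0.868 and 0.869 with TH588. The heterodimer's RNAs thus shifted toward *XRCC6* in all 3 treated libraries, by 0.28 on the log2 scale (standard error 0.07). For *PRKDC* to *XRCC5*, the ratio was 1.48, 1.33 and 1.31 with DMSO and 1.47, 1.48 and 1.36 with TH588. Those groups overlapped, and the log2 difference was 0.06 (standard error 0.07, exact permutation p = 0.3). For *DCLRE1C* to *PRKDC*, nuclease to kinase, it was 0.0363, 0.042 and 0.0408 with DMSO and 0.0862, 0.0626 and 0.0693 with TH588, a log2 difference of 0.86 (standard error 0.15).

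*LIG4* to *XRCC4* gave 1.87, 1.36 and 1.86 with DMSO and 2.93, 2.45 and 2.29 with TH588, a log2 difference of 0.60 (standard error 0.19). *PAXX* to *XRCC4* gave 1.71, 1.38 and 1.61 with DMSO and 0.642, 1.05 and 0.894 with TH588, a log2 difference of -0.89 (standard error 0.23). *POLL* to *POLM* gave 0.57, 0.704 and 0.724 with DMSO and 1.13, 1.23 and 1.04 with TH588, a log2 difference of 0.77 (standard error 0.13). These ratios are of counts, which also reflect length. *POLL* is longer than *POLM* in summed exon bases (5420 against 4487) but shorter in its longest transcript (2914 against 3218). Of the 6 pairs compared, 5 did not overlap between the groups, each with an exact two-sided permutation p = 0.1 (adjusted over the pairs, 0.12). That p is the smallest that 3 libraries against 3 can give, so no pair could pass the threshold.

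**Figure D3:**
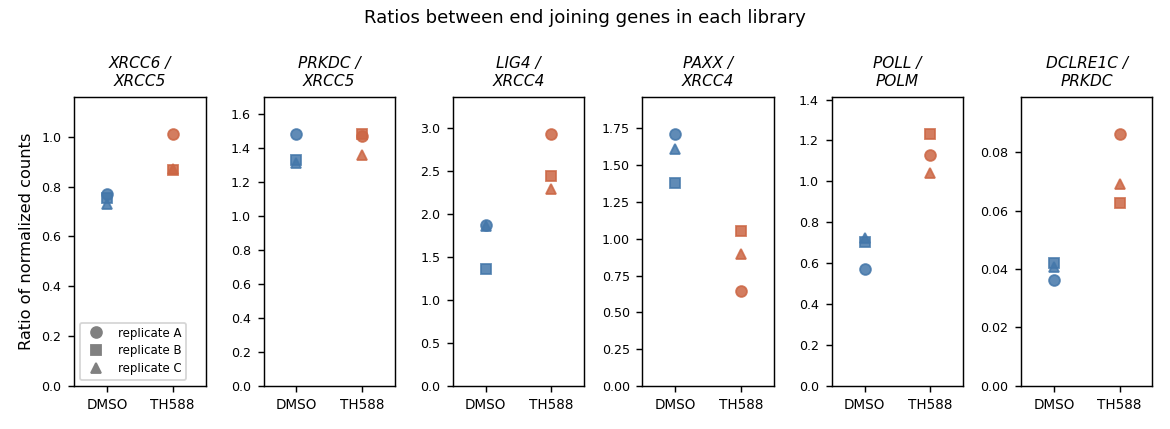
Ratio of normalized counts of the 6 pairs in each library, on linear axes that start at 0, with DMSO in blue, TH588 in orange and replicate letters as marker shapes. Treated and control libraries separate in 5 panels and overlap for *PRKDC* to *XRCC5*, where all 6 ratios lie between 1.31 and 1.48.

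Levels of different genes can be compared only per length, here as CPM per kilobase of summed exon length. With DMSO the order was *XRCC6* (229.4 ± 5.33), *XRCC5* (183.8 ± 8.97), *PRKDC* (89.2 ± 2.06), *PAXX* (12.6 ± 0.974), *DCLRE1C* (8.62 ± 0.463), *LIG4* (4.20 ± 0.0394), *XRCC4* (4.15 ± 0.76), *POLM* (1.56 ± 0.279) and *POLL* (0.845 ± 0.0377; SD, n = 3 per group). The 3 DNA-PK genes ranked 154, 192 and 394 of 15844 genes from the highest, whereas *POLM* and *POLL* ranked 8772 and 10234. Only *LIG4* and *XRCC4* were neighbours within their spread. With TH588, *DCLRE1C* (8.67 ± 0.845) stood above *PAXX* (6.23 ± 1.62), *LIG4* at 5.72 ± 0.557 lay within the spread of *PAXX*, and *POLM* (1.90 ± 0.156) and *POLL* (1.78 ± 0.234) came within each other's spread (SD, n = 3 per group). *XRCC6* (147 ± 2.78), *XRCC5* (97.2 ± 8.10) and *PRKDC* (49.3 ± 3.34) kept their order. Part of this order depends on the length used. Per kilobase of the longest annotated transcript, *XRCC4* stood at 6.55 and *LIG4* at 2.73 with DMSO, and *POLL* at 3.32 and *POLM* at 2.65 with TH588. By that length with TH588, *DCLRE1C* stood at 8.25, *PAXX* at 7.9 and *LIG4* at 3.71.

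Among the 67 tested genes of the end joining, 53BP1, resection and recombination lists, the profile nearest to *PRKDC* over the 6 libraries was that of *XRCC5*, and the reverse, with a root mean square difference of 0.08 on the log2 scale against a median of 0.37 and 0.38 over the other 66. *XRCC6* was nearest to *TDP1*, an enzyme that removes adducts from DNA ends (0.04, median 0.31). *PAXX* was nearest to *RAD51AP1*, a recombination cofactor (0.18, median 0.44), and *LIG4* to *LIG3*, a second DNA ligase (0.14, median 0.50). *POLM* was nearest to *CTC1* (0.14, median 0.47), *DCLRE1C* to *RAD52* (0.09, median 0.32) and *XRCC4* to *RHNO1* (0.06, median 0.31). These matches describe 6 libraries in 2 groups and carry no test.

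RefSeq promoter windows of 300 bases, 250 of them before the start, were searched on both strands for 8 members. Those of *PRKDC* and *XRCC5* were not searched. CCGGAAG or its complement, the ETS site, was in 10.2% of 34796 windows and in those of *LIG4*, *POLL*, *POLM*, *XRCC4* and *PAXX*. GGGCGG, the GC box, was in 44.9% of all windows and in those of *PAXX* (6 matches), *POLM* (4), *XRCC6* (3), *NHEJ1* (2), *XRCC4* and *DCLRE1C* (1 in either). The E2F variant TTCCCGC (6.56% of windows) occurred once in *PAXX* and the variant TTGGCGC (3.04%) once in *XRCC6*. CCAAT (34.6%) was found in *XRCC6*, *XRCC4*, *POLM* and *DCLRE1C*, and the NRF1 core GCGCATGC (2.99%) in *XRCC6* and *LIG4*. TTTGAA, the CHR element (15.2%), and TGACGTCA, the CRE (1.84%), were in none of the 8 windows. These are matches of letters only.

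Of 15 accessory genes that assist end joining, 14 were tested, of which 3 were higher and 4 lower, the median log2 fold change being -0.04, against 0.02 over all genes. The 7 called of 14 match the background of 49.6%, and the sign of the median turned without TH588 replicate A (0.006) and with library size only (0.069). *PARP3*, an enzyme that marks breaks with ADP-ribose, rose from 6.03 ± 0.604 to 16.4 ± 0.921 CPM (SD, n = 3 per group), which gave a log2 fold change of 1.44 (standard error 0.12, edgeR adjusted p = 1.24e-06). *SFPQ* (-0.72), *CYREN* (-0.64, with 23.2% of its exon bases shared) and *TDP1* (-0.58) fell. *CYREN* encodes an inhibitor of end joining in S and G2 phase. *MATR3* has 2 identifiers and was left out.

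The 53BP1 and shieldin pathway protects ends from resection and so steers them to end joining. Of its 17 genes, 16 were tested, of which 1 was higher and 7 were lower (background 24.2% and 25.3%), the median log2 fold change being -0.20. The 8 called of 16 match the background of 49.6%. The largest falls were *H2AX*, the histone variant marked at breaks, from 118.4 ± 14.4 to 37.1 ± 4.01 CPM (SD, n = 3 per group; log2 fold change -1.67), *MDC1*, its reader (-1.16), and *RIF1*, an effector of 53BP1 (-0.81). *TP53BP1* itself had a log2 fold change of 0.14 (edgeR adjusted p = 0.167) and the kinase gene *ATM* 0.22 (edgeR adjusted p = 0.0657). *CTC1*, part of a fill-in complex, was the gene called higher (0.26, edgeR adjusted p = 0.0244), and no gene of the list was called higher without DMSO replicate A, B or C.

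Most genes of the competing routes were lower. In the resection and polymerase theta list, 10 of 14 were lower and 1 was higher (background 25.3% and 24.2%), with a median of -0.96. The nuclease gene *EXO1* fell from 139.4 ± 6.61 to 31.9 ± 2.31 CPM and *POLQ*, the polymerase of microhomology-mediated joining, from 92.4 ± 1.13 to 24.4 ± 1.39 CPM (SD, n = 3 per group; log2 fold changes -2.13 and -1.92). The helicase gene *BLM* fell by 1.58 on the log2 scale. *LIG3* was the gene called higher (0.20, edgeR adjusted p = 0.0425), with 30.5% of its exon bases shared, and that call was lost without any one of DMSO replicates A, B or C or TH588 replicates B or C. In the homologous recombination core, 12 of 14 were lower and 1 was higher (the same background), with a median of -1.13. *BRCA1* fell from 179.7 ± 4.83 to 59.6 ± 2.13 CPM (SD, n = 3 per group; log2 fold change -1.59), *RAD54L* by 1.58, with 25.1% of its exon bases shared, and *BRCA2* by 1.49. *RAD51B* was higher (0.45, edgeR adjusted p = 0.0212), a call lost without DMSO replicate A or TH588 replicate C, and *RAD52* had a log2 fold change of -0.03 (edgeR adjusted p = 0.872). The lists were not tested against each other.

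**Figure D4:**
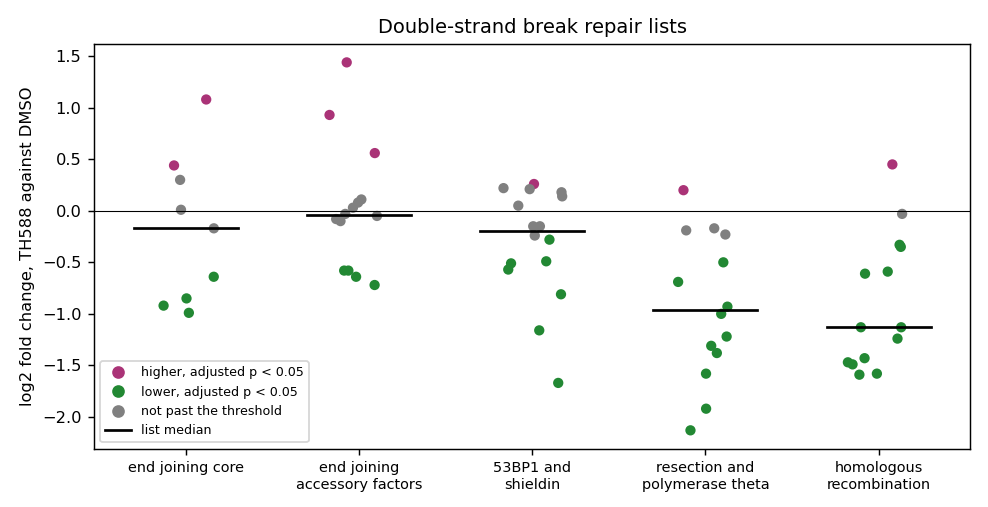
Log2 fold change (TH588 against DMSO) of each tested gene in 5 double-strand break repair lists, with purple for higher, green for lower and grey for not past an adjusted p of 0.05, and bars at the list medians. Medians run from -0.04 and -0.17 in the end joining lists to -0.96 and -1.13 in the resection and recombination lists; horizontal scatter within a list has no meaning.

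Replication genes moved in the same libraries. All 20 S phase genes listed were lower, against 25.3% of all genes tested. Their median log2 fold change was -1.30, against 0.02 over all genes tested. Their summed level was 2989.8 to 3122.7 CPM with DMSO and 1169.2 to 1289.2 CPM with TH588. The largest falls were those of *CCNE2* (-2.06, 37.1% of exon bases shared), *CDC6* (-1.95) and *RRM2* (-1.94, 20.2% shared). *MCM4*, the divergent neighbour of *PRKDC*, is one of these S phase genes. What part the change in S phase genes had in the levels of the end joining genes was not tested. Of the lymphoid genes that use this machinery for V(D)J recombination, *RAG2* and *DNTT* were at or near 0, and *RAG1* went from 0.444 ± 0.244 to 0.923 ± 0.147 CPM (SD, n = 3 per group; log2 fold change 1.05, edgeR adjusted p = 0.0488).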

How the data were processed

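Poly(A) RNA of A2780 cells was sequenced from TruSeq libraries, which do not mark strand. Per the labels and the methods, the authors aligned reads with TopHat to GRCh38 and counted them per gene with featureCounts 1.4.6. They deposited raw counts, which were used as deposited. Treatment of reads matching several genes is not given in the sources used here. Groups came from the sample titles.

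Counts were fitted with edgeR 4.0.16 in R 4.3.3 (TMM normalization, default filter on low counts, quasi-likelihood test, two-sided, Benjamini-Hochberg adjustment over 15844 genes, threshold 0.05), whereas the study used DESeq2. Each standard error was derived from the estimate and its F statistic. The table's Length column gave levels per kilobase. Identifiers were matched to symbols for 57754 genes. The procedure was tested on simulated data. Replicate pairs differed beyond sampling noise (chi-square per degree of freedom 23.5 to 165.3). The correlations of the deviations of same-lettered libraries were -0.07, -0.08 and 0. They showed no pairing by letter but cannot exclude one. Alternatives were DESeq2 1.42.0, limma-voom (limma 3.58.1), other scalings and filters, each library left out, a replicate block and a removed length trend.

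The members and lists were chosen with earlier results of these data known. Named were all members, genes starting within 1 kb of a member's start on the other strand, pseudogene copies, the nearest profile of each member, and the 3 largest rises and falls per list among called genes whose groups did not overlap and whose mean log2 CPM was 2 or more. *TP53BP1*, *ATM*, *RAD52*, *RAG1*, *RAG2*, *DNTT* and the cell type markers fell outside that rule and were named after their values were seen, as were genes that share exon bases with a member. Some results that fall under the rule are not reported here.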

Additional observations from a re-analysis of the deposited data

How the results depend on the processing

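Under 17 alternative settings, *PRKDC*, *XRCC5*, *XRCC6*, *PAXX*, *LIG4* and *POLL* kept their direction and their call, with log2 fold changes of -0.90 to -0.75, -0.95 to -0.81, -0.68 to -0.54, -1.16 to -0.81, 0.38 to 0.54 and 0.97 to 1.20.  At a threshold of 0.01, these 6 were still called. *XRCC4* stayed uncalled (-0.23 to -0.02). The count of called members was 6, except 7 without DMSO replicate A, where *POLM* passed. *DCLRE1C* stayed near 0 and changed sign with limma-voom (-0.012) and with libraries left out (-0.061 to 0.061). The median over members was -0.062 with library size only and -0.075 with no filter on low counts, which also includes *NHEJ1*. The same median lay between -0.23 and -0.015 with libraries left out, the latter without DMSO replicate B. That over the accessory list changed sign with library size only (0.069) and ran from -0.067 to 0.006 with libraries left out. With library size only, the median of all genes moved from 0.019 to 0.126 and 60.4% of called genes were higher, against 48.9%. The replicate block gave 7195 called genes, 7129 of them shared with the 7852 without it, and 6 called members, and changed no call of a member, while the lone higher calls in the 53BP1 and resection lists were lost. The ratio differences with libraries left out ranged from 0.21 to 0.31 for *XRCC6* to *XRCC5*, 0.03 to 0.12 for *PRKDC* to *XRCC5*, 0.45 to 0.68 for *LIG4* to *XRCC4*, -1.04 to -0.69 for *PAXX* to *XRCC4*, 0.66 to 0.83 for *POLL* to *POLM* and 0.73 to 0.96 for *DCLRE1C* to *PRKDC*. The causes of these changes were not tested. Low counts and the exon bases shared with another gene model limit *NHEJ1*, and the shallow TH588 replicate A limits the precision of all genes of low abundance.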
